A study of Mus musculus with 4 samples.

Results

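Transcripts of 9 genes that build and link the laminin network of the basement membrane were followed in fractionated skeletal muscle of wild-type (WT) mice. The genes were chosen by name, with earlier results of these data known. They were 5 laminin chains (Lama2, Lama4, Lamb1, Lamb2, Lamc1), 2 nidogens (Nid1, Nid2), perlecan (Hspg2) and agrin (Agrn). All 9 were present among the 16472 genes of the deposited table. Total RNA was sequenced from 2 libraries of isolated mitochondria, titled SM-mito, and 2 libraries titled SM-total, whose treatment label reads tissue minus mitochondria. The latter group is called remaining tissue here, a term of the labels' extraction protocol. The titles and a supplementary legend of the study speak of total muscle instead, so whether it was whole or depleted muscle is not settled. The fraction was prepared to find RNAs that accompany mitochondria. The groups share genotype and tissue, age and strain are not given in the labels, and nothing states that the 2 libraries of a group came from separate animals, so p-values measure the spread between these libraries, which may be technical. The study describes its isolation for heart, with trypsin on the minced tissue, centrifugation of the homogenate and digitonin and RNase A on the mitochondrial pellet, while the muscle labels cite a published protocol. Library fragmentation was adjusted for mitochondrial samples. An effect of fragmentation cannot be told apart from that of the fraction.

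The basement membrane is a thin sheet of matrix that surrounds every muscle fibre, capillary and nerve. Laminins are secreted trimers of an alpha, a beta and a gamma chain, which assemble in the endoplasmic reticulum, polymerize outside the cell and bind dystroglycan and integrins on the muscle surface. Nidogens bind the laminin gamma chain and link it to collagen IV, and perlecan is a large heparan sulfate proteoglycan of the same sheet. Agrin is a proteoglycan whose nerve-derived form clusters acetylcholine receptors at the neuromuscular junction. Loss of the laminin alpha2 chain, encoded by Lama2, causes congenital muscular dystrophy.

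All of these proteins are secreted. Near the start of their coding sequence, the messages carry codons for a hydrophobic signal that directs translation to the endoplasmic reticulum. The first 90 coding bases (30 codons) are shown, as GENCODE M21 annotates them on GRCm38, for the beta chain pair, whose proportions differed most between the fractions among the 3 pairs compared below, for the shared gamma chain and for a nidogen and perlecan as linkers. In-frame leucine codons, which make up much of such signals, are in capitals.
Lamb1: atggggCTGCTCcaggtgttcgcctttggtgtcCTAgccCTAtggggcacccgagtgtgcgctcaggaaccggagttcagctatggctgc
Lamb2: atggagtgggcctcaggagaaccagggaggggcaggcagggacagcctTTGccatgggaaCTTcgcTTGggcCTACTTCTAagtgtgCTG
Lamc1: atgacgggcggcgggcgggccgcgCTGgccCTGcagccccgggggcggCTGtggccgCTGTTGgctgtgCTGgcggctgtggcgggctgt
Nid1: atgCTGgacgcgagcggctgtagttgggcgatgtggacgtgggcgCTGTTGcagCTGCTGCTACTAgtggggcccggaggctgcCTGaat
Hspg2: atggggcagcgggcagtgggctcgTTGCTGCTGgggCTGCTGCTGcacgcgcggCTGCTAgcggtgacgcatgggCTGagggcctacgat
The start codon of Lamb1 lies on chromosome 12 at 31265565 to 31265567 (plus strand), that of Lamb2 on chromosome 9 at 108480059 to 108480061 (plus), that of Lamc1 on chromosome 1 at 153332537 to 153332539 (minus), that of Nid1 on chromosome 13 at 13437702 to 13437704 (plus) and that of Hspg2 on chromosome 4 at 137468862 to 137468864 (plus). The window held between 4 and 9 leucine codons in the 9 genes, with a median of 7, against a median of 3 over 6415 tested protein-coding genes. Of these 6415 genes, 24.35% had at least 5 leucine codons there, as did 7 of the 9.

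The deposited values are normalized counts, gene counts divided by a size factor per library. A normalized count stood for very different numbers of reads in the fractions, since 1 read was worth 9.05 and 5.06 normalized counts in isolated mitochondria replicates 1 and 2 and an estimated 0.142 in remaining tissue. Mitochondrially encoded genes took 94.1% to 95.3% of assigned reads in isolated mitochondria and 20.5% to 22.3% in remaining tissue. This left 90821 reads for nuclear protein-coding genes in isolated mitochondria replicate 1 and 156292 in replicate 2, while remaining tissue had an estimated 10814048 and 10591717. The 8 myofibre markers summed to 523870 and 504571 normalized counts in remaining tissue and to 61660 and 54647 in isolated mitochondria. Muscle transcripts were thus detected in all 4 libraries, and these sums do not give their part of the reads.

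Basement membrane transcripts made up a larger part of the nuclear messages in isolated mitochondria. The 9 genes together held an estimated 0.110% of nuclear protein-coding reads in the first library of remaining tissue (Wilson interval at 95%, 0.109 to 0.112) and 0.119% in the second (0.117 to 0.121). Isolated mitochondria reached 0.770% (0.715 to 0.829) in replicate 1 and 1.22% (1.17 to 1.28) in replicate 2, a group mean 8.69 times that of remaining tissue. Behind these shares stood 699 and 1912 reads of isolated mitochondria, and about 11941 and 12597 of remaining tissue. Both libraries of isolated mitochondria lay above both of remaining tissue, and 2 libraries against 2 allow no exact permutation p below 0.33. The intervals hold counting error alone. The reads carried no molecular identifiers and duplicates were not told from separate molecules, so the intervals may be too narrow even for that. The direction depended on the denominator. As a share of all assigned reads the group mean of isolated mitochondria was 0.044 times that of remaining tissue, and of reads outside mitochondrially encoded genes 0.628 times.

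Differential abundance was tested on log2(normalized count + 1) with limma for 6916 genes, those whose 4 libraries averaged 20 or more. All 9 genes passed this minimum and also had a mean above 20 in remaining tissue alone. At an adjusted p under 0.05, 7 of the 9 were higher in isolated mitochondria, against 7.32% of all genes tested, and 0 were lower, against 9.3%. Lama2, Lama4, Lamb1, Lamc1, Nid1, Nid2 and Hspg2 were higher, and Lamb2 and Agrn did not pass. At an unadjusted p under 0.05 the counts were also 7 higher (15.1% of all genes) and 0 lower (21.9%). On the recovered reads, edgeR called 7 higher and 0 lower, against 13.6% and 17.6% of all genes, and the same 2 counts came with TMM scaling, against 16.0% and 12.6%. DESeq2 called 8 higher, Lamb2 included, and 0 lower, against 20.3% and 12.7%. The median log2 fold change of the 9 was 2.19, beside -0.44 over all genes tested. The 2 libraries of a group did not overlap with those of the other for 8 of the 9, all higher in isolated mitochondria, against 25.5% of all genes higher and 43.7% lower. Because the 9 were chosen with earlier results of these data known, these counts are a description and the set was not tested.

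**Figure D1:**
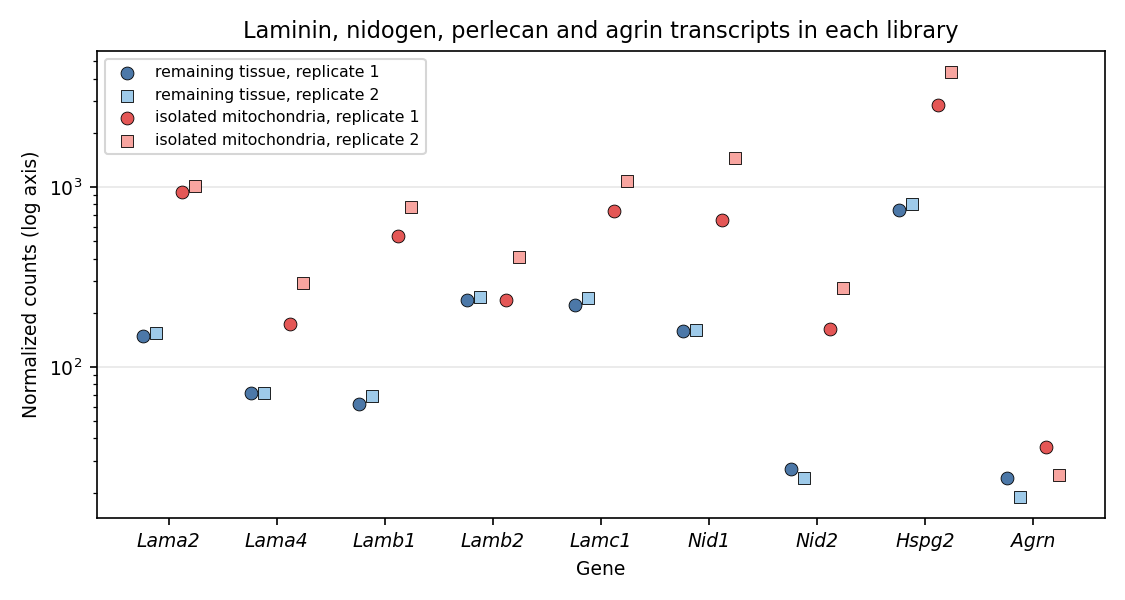
Normalized counts (log axis) of the 9 genes in each library, with circles for replicate 1 and squares for replicate 2, blue for remaining tissue and red for isolated mitochondria. The red points lie above the blue for every gene except Lamb2, where isolated mitochondria replicate 1 (235) falls between the tissue libraries (234 and 244).

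Among the alpha chains, Lama2 (ENSMUSG00000019899, chromosome 10, 26980036 to 27619758, minus strand) encodes the main alpha chain of the muscle fibre basement membrane. Its normalized counts were 149 and 155 in remaining tissue but 932 and 1012 in isolated mitochondria, the latter from 103 and 200 reads. The replicates lay close together in both fractions, far from the other group. The log2 fold change was 2.67 (SE 0.17, limma adjusted p 0.0078, 95% interval 2.19 to 3.14), and 5.91% of all genes tested had a larger one. Lama4 (ENSMUSG00000019846, chromosome 10, 38965515 to 39110188, plus strand), the alpha chain typical of vessels and nerve, had 72 normalized counts in both libraries of remaining tissue, and 172 and 293 in isolated mitochondria (19 and 58 reads). Its groups did not overlap either, and the difference was smaller, at 1.63 (SE 0.33, adjusted p 0.0469). The adjusted p of Lama4 was 0.176 without remaining tissue replicate 1 and 0.185 without replicate 2, with the same fold change, and over all alternatives it lay between 2.42e-10 and 0.185.

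The beta chains gave unlike values. Lamb1 (ENSMUSG00000002900, chromosome 12, 31265234 to 31329644, plus strand), the more widely expressed beta chain, had 62 and 69 normalized counts in remaining tissue and 534 and 774 in isolated mitochondria (59 and 153 reads). This was the largest fold change of the 9 genes, 3.28 on the log2 scale (SE 0.27, limma adjusted p 0.011). Lamb2 (ENSMUSG00000052911, chromosome 9, 108479736 to 108490530, plus strand), the beta chain of the neuromuscular junction and vessel walls, had 234 and 244 normalized counts in remaining tissue and 235 and 410 in isolated mitochondria (26 and 81 reads). Its groups overlapped. The log2 difference was 0.38 (SE 0.33, adjusted p 0.443), and its 95% interval, -0.53 to 1.28, leaves room for a change of 2.43-fold. The value of Lamb2 rested on isolated mitochondria replicate 2, since it was -0.02 without that library (adjusted p 0.711) and 0.78 without replicate 1 (adjusted p 0.0203), and over all alternatives its adjusted p lay between 0.000907 and 0.884. A fit without a library takes the spread from the group that keeps 2 and assumes that the lone library varies alike.

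A comparison inside each library does not depend on the scaling. Of the reads of both beta chains, Lamb1 took 20.95% (95% Wilson interval 19.3 to 22.8) and 22.03% (20.4 to 23.8) in the libraries of remaining tissue, and 69.4% (58.95 to 78.2) and 65.4% (59.1 to 71.2) in isolated mitochondria. Lamb2 transcripts were thus the more numerous in remaining tissue and Lamb1 transcripts in isolated mitochondria, in each of the 2 libraries, and their longest coding transcripts are of similar length (5784 and 5629 nt). Of the reads of both alpha chains, Lama2 took 67.4% (65.0 to 69.7) and 68.3% (65.95 to 70.5) in remaining tissue and 84.4% (76.95 to 89.8) and 77.5% (72.0 to 82.2) in isolated mitochondria. The nidogen pair differed less, with Nid1 at 85.5% (83.5 to 87.3) and 87.0% (85.0 to 88.7) in remaining tissue and 80.0% (70.6 to 87.0) and 84.1% (79.9 to 87.6) in isolated mitochondria. The exact permutation p of such shares cannot go below 0.33 either.

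**Figure D2:**
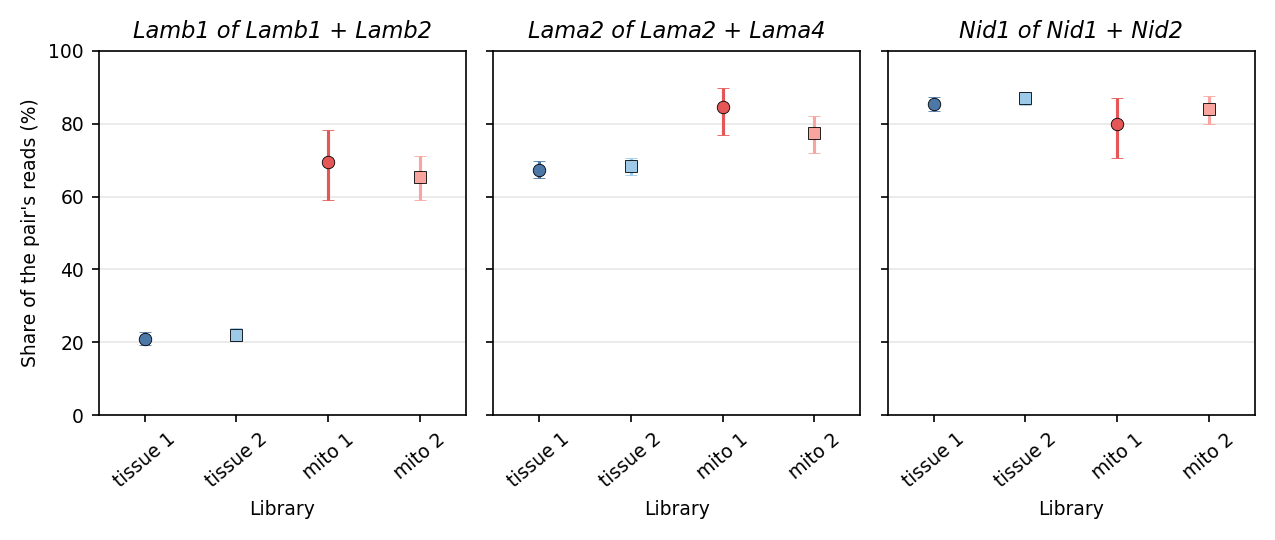
Share of the reads of each pair of related genes (y axis, percent) that came from the first gene, per library, with 95% Wilson intervals as bars. Lamb1 takes 20.95% and 22.03% of beta chain reads in remaining tissue and 69.4% and 65.4% in isolated mitochondria, while the intervals of Nid1 overlap between fractions.

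Lamc1 (ENSMUSG00000026478, chromosome 1, 153218922 to 153332786, minus strand) encodes the gamma chain found in most laminin trimers and carries the nidogen binding site. Normalized counts were 221 and 242 in remaining tissue and 733 and 1083 in isolated mitochondria (81 and 214 reads), without overlap. The log2 fold change was 1.94 (SE 0.26, limma adjusted p 0.0228), between those of the beta chains. The ratio of Lamc1 to Lamb1 normalized counts was 3.57 and 3.51 in remaining tissue and 1.37 and 1.40 in isolated mitochondria, and that of Lamc1 to Lamb2 was 0.944 and 0.992 against 3.12 and 2.64. Per kilobase of the longest coding transcript, Lamc1 and Lamb1 stood nearly equal in isolated mitochondria, with ratios of 1.04 and 1.06.

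Both nidogens were called higher in isolated mitochondria, Nid1 less firmly. Nid1 (ENSMUSG00000005397, chromosome 13, 13437551 to 13512269, plus strand) had 159 and 160 normalized counts in remaining tissue and 652 and 1447 in isolated mitochondria (72 and 286 reads). The groups stood apart, although the libraries of isolated mitochondria differed from each other by a factor of 2.22, the widest spread of the 9 genes. Its log2 fold change was 2.60 (SE 0.43, limma adjusted p 0.0331), and 2.02 without isolated mitochondria replicate 2 and 3.17 without replicate 1. The call of Nid1 was lost with a minimum mean of 5 (adjusted p 0.0631), without a filter (0.0593) and in eBayes without trend (0.0583), and over all alternatives its adjusted p lay between 4.95e-09 and 0.633. Nid2 (ENSMUSG00000021806, chromosome 14, 19751265 to 19811787, plus strand), the less abundant relative, had 27 and 24 normalized counts in remaining tissue and 163 and 273 in isolated mitochondria (18 and 54 reads). It rose by 3.002 (SE 0.35, adjusted p 0.0191), second to Lamb1. Nid2 shares 437 exonic bases with Rtraf on the opposite strand and Nid1 143 with Gm48682, and the strand setting of the counting was not stated, and reads that overlapped several genes were left out of the counts. Depending on that setting, these stretches may not have been counted. Nid1 also shares 225 nt at 99.6% identity with Gm2399, and 3 further genes share stretches of 50 nt or longer with it (identity 90% or above). Lama2 shares 631 exonic bases with Gm48084 on the opposite strand, and the other 6 genes overlap no exon of another gene.

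Hspg2 (ENSMUSG00000028763, chromosome 4, 137468769 to 137570630, plus strand) was the most abundant of the 9 in every library and gave the most precise read numbers. It had 746 and 802 normalized counts in remaining tissue and 2868 and 4356 in isolated mitochondria (317 and 861 reads). The fold change was 2.19 on the log2 scale (SE 0.26, limma adjusted p 0.0197), without overlap between groups. Its part of the reads of all 9 genes hardly moved, with 44.0% and 44.9% in remaining tissue and 45.4% and 45.0% in isolated mitochondria. Agrn (ENSMUSG00000041936, chromosome 4, 156165290 to 156197488, minus strand) was the least abundant of the 9 in every library. It had 24 and 19 in remaining tissue and 36 and 25 in isolated mitochondria, which were 4 and 5 reads. The libraries of isolated mitochondria lay above those of remaining tissue by 1 normalized count at the nearest, and the log2 difference was 0.47 (SE 0.42, adjusted p 0.451, 95% interval -0.68 to 1.62). The interval, which rests on the spread between libraries, reaches from 0.625-fold to 3.08-fold, so a difference of that size in either direction is not excluded by it.

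**Figure D3:**
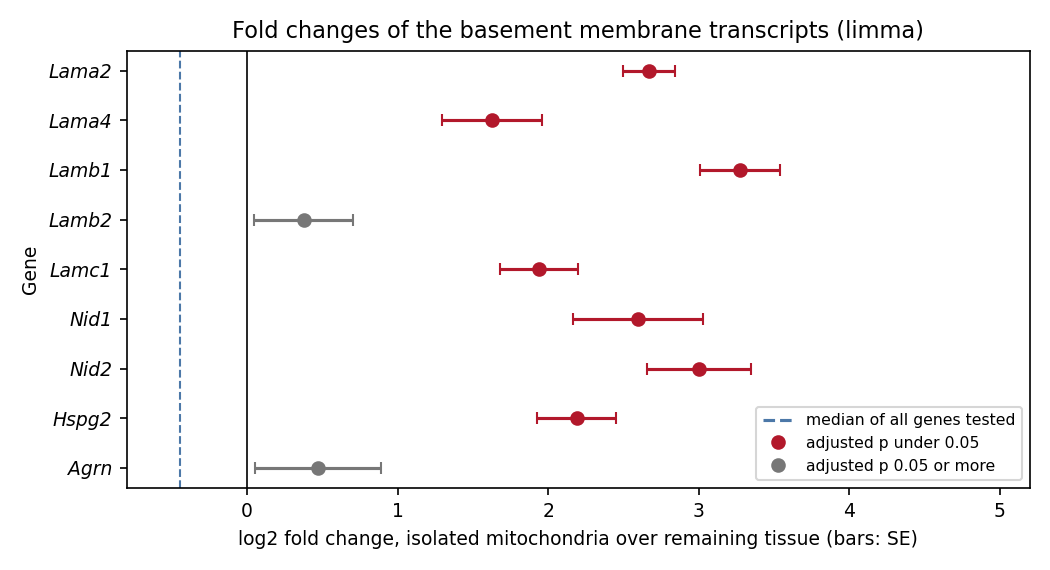
Log2 fold change (x axis, isolated mitochondria over remaining tissue) of each gene with its SE as bars, in red where the limma adjusted p is under 0.05. Lamb1 (3.28) and Nid2 (3.002) lead, Lamb2 (0.38) and Agrn (0.47) did not pass, and all lie to the right of the dashed median of all genes tested (-0.44).

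The order of the levels changed between fractions. Levels are given here as normalized counts per kilobase of the longest coding transcript (mean ± SD, n = 2), which were 4876 to 14187 nt long. In remaining tissue Hspg2 led with 54.6 ± 2.79, followed by Lamb2 with 42.5 ± 1.26, Lamc1 with 30.4 ± 1.95, Nid1 with 26.2 ± 0.116 and Lama2 with 15.8 ± 0.441. Lama4 (11.9 in both libraries) and Lamb1 (11.3 ± 0.856) overlapped, and Nid2 (5.23 ± 0.435) and Agrn (2.96 ± 0.487) were lowest. The other neighbours in this order did not overlap. In isolated mitochondria Hspg2 again led with 255 ± 74.2, although its lower library (202) fell below the higher of Nid1 (238). Nid1 (172 ± 92.3), Lamc1 (119 ± 32.5), Lamb1 (113 ± 29.3) and Lama2 (101 ± 5.88) followed, and their libraries overlapped between neighbours in this order, while those of Lama2 lay below both of Nid1. Lamb2 (57.3 ± 21.98), Nid2 (44.7 ± 15.95) and Lama4 (38.5 ± 14.2) formed a lower overlapping group, and Agrn (4.2 ± 1.07) was last. Lamb2 thus stood second in remaining tissue and sixth in isolated mitochondria. The spread between replicates was wider in isolated mitochondria, where 8 of the 9 genes were higher in replicate 2, with a median ratio of 1.52 between the libraries, beside 1.11 over tested genes above 0 in both. These are amounts of RNA in a fraction, and neither cell numbers nor RNA per cell can be read from them.

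The same comparison was made for the other genes of the basement membrane. Most of its collagens were higher in isolated mitochondria too. Of 8 such genes, 7 were tested and 6 were higher (limma), with a median log2 fold change of 2.97 and 0 lower. Col4a1 and Col4a2, the chains of the common collagen IV network, were higher by 2.99 (SE 0.39, adjusted p 0.0225) and 2.75 (SE 0.31, adjusted p 0.0187). Col15a1, a collagen at the outer face of muscle and capillary basement membranes, was higher by 3.51 (SE 0.34, adjusted p 0.0144), and Col18a1, the precursor of endostatin, by 2.97 (SE 0.43, adjusted p 0.0253). Col4a4 and Col4a5 also passed, Col4a3 did not (2.41, adjusted p 0.0816), and these 3 passed the minimum mean only through isolated mitochondria, which favours a positive value. At an unadjusted p under 0.05 all 7 were higher.

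Apart from Lama5, the other laminin chains in the table were scarce in remaining tissue. Lama3 and Lamb3, chains found in epithelia, had 5 to 12 normalized counts in remaining tissue and at most 1 read in isolated mitochondria. Lama5, a vascular alpha chain, had 78 and 63 normalized counts in remaining tissue and 3 and 1 reads in isolated mitochondria (log2 difference -2.46, SE 0.85, limma adjusted p 0.122). Lamc3, a less common gamma chain, was higher at 4.17 (SE 0.42, adjusted p 0.0148) with 11 and 22 reads, but passed the minimum mean only through isolated mitochondria. Of these 2 tested chains, edgeR and DESeq2 each called 1 higher and 1 lower, the lower being Lama5. With TMM scaling edgeR called 1 higher and 0 lower. Among 12 other proteins of the basement membrane, 6 were tested and 2 were higher, Smoc2, a relative of Sparc (2.73, SE 0.28, adjusted p 0.0148) and fibulin-2, Fbln2 (2.26, SE 0.23, adjusted p 0.0151). Sparc itself was at 1.88 (SE 0.76, adjusted p 0.161). Of these 6 genes, edgeR called 4 higher and DESeq2 5, each with 0 lower. Among the 6, 2 genes, Ntn4 and Fbln1, passed the minimum mean only through isolated mitochondria, which favours a positive value.

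No receptor gene on the list passed the test. The list of laminin and agrin receptors held 10 genes, among them Rapsn and Dok7, which encode synaptic partners rather than receptors and were not tested. Of the 10, 7 were tested and limma called 0 in either direction, as did edgeR and DESeq2. Over all genes limma called 7.32% higher and 9.3% lower, so 0 calls among 7 genes differ little from that. The median of the 7 was -0.81, beside -0.44 over all genes tested. At an unadjusted p under 0.05, 0 were higher (15.1% of all genes) and 3 lower (21.9%). Dag1, which encodes dystroglycan, had 413 and 397 normalized counts in remaining tissue and 190 and 278 in isolated mitochondria (log2 difference -0.81, SE 0.26, adjusted p 0.105). Itga7, the muscle laminin integrin, was at -1.07 (SE 0.29, adjusted p 0.0806) and its partner Itgb1 at 0.10 (SE 0.18, adjusted p 0.712). Of the 11 enzymes in the table that glycosylate dystroglycan for laminin binding, 7 were tested, 0 were higher and 1, B3galnt2, was lower (-2.71, SE 0.54, adjusted p 0.0451), with 3 and 2 reads in isolated mitochondria. At an unadjusted p under 0.05, 0 of these were higher and 3 lower, and edgeR and DESeq2 each called 3 lower and 0 higher. Whether receptors and ligands differ as groups was not tested.

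**Figure D4:**
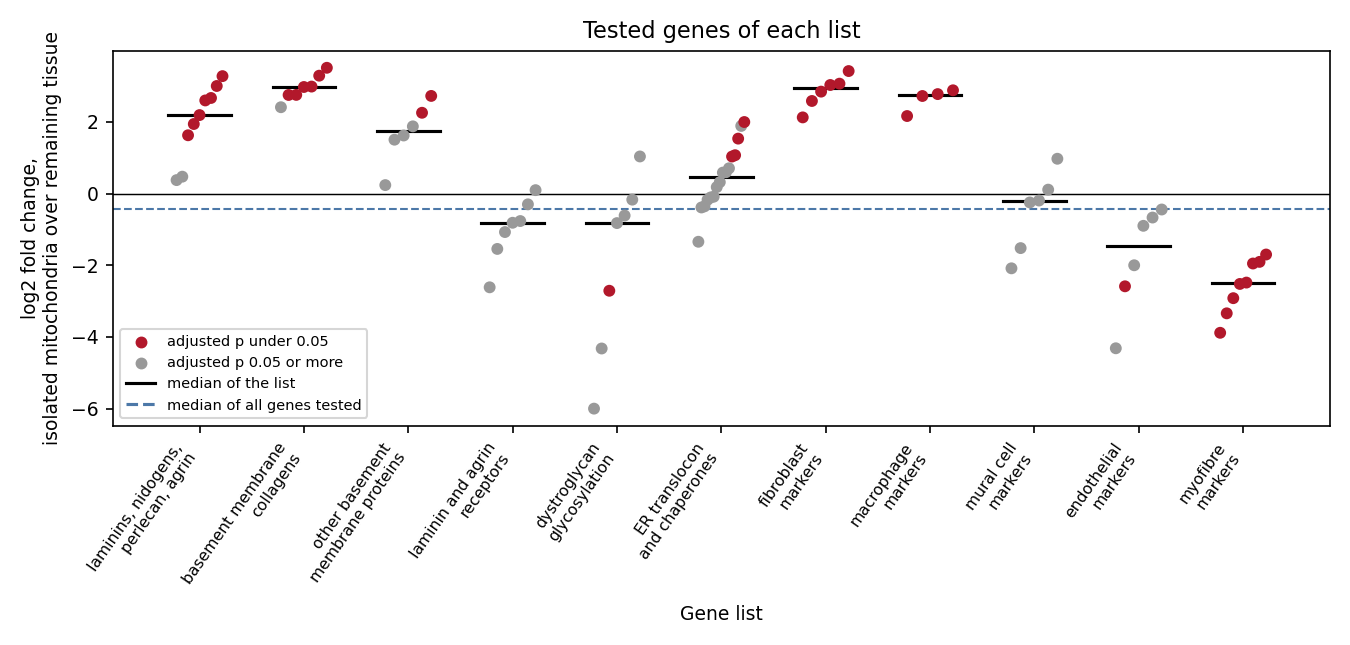
Log2 fold change (y axis) of every tested gene of the lists shown (x axis), red where the limma adjusted p is under 0.05, with a black line at the median of the list and a dashed line at the median of all genes tested. The laminin group (median 2.19) and basement membrane collagens (2.97) lie near fibroblast markers (2.94) and macrophage markers (2.75), and receptors (-0.81), endothelial markers (-1.45) and myofibre markers (-2.50) lie lower.

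Because laminins are made by fibres, fibroblasts, vessels and Schwann cells, markers of these cells were examined in the same fit. Of 6 fibroblast markers all 6 were higher (limma), with a median of 2.94 and a sum of 1569 and 1675 normalized counts in remaining tissue against 10153 and 18571 in isolated mitochondria. They ranged from Pdgfra, a receptor of fibroblast progenitors (2.13, SE 0.20, adjusted p 0.0132), to the fibrillar collagen gene Col3a1 (3.42, SE 0.41, adjusted p 0.0197). Of 5 macrophage markers 4 were tested, Adgre1 only through isolated mitochondria, and all 4 were higher, with a median of 2.75 and sums of 79 and 96 against 587 and 586. In contrast, 0 of 6 tested endothelial markers were higher and 1, Cdh5, was lower (-2.59, SE 0.37, adjusted p 0.0249), with sums of 517 and 525 against 126 and 207. At an unadjusted p under 0.05, 0 endothelial markers were higher and 2 lower, and edgeR and DESeq2 each called 0 higher and 3 lower. Limma called 0 of 6 mural cell markers (sums 733 and 646 against 435 and 506), with 1 higher and 1 lower at an unadjusted p under 0.05 and by edgeR and DESeq2. All 8 myofibre markers were lower, with a median of -2.50. The Schwann cell list had 1 tested gene, Pmp22 (0.66, adjusted p 0.204), with sums of 76 and 57 against 54 and 70. Satellite cell markers summed to 34 and 40 against 90 and 55, with 1 tested gene, Cdh15, that was not called. Of the neuronal markers, Rbfox3 and Cntn1 were higher, both tested only through isolated mitochondria, with sums of 7 and 5 against 1285 and 966 over the list. The fibroblast markers, which include matrix genes such as Col3a1, and the macrophage markers thus moved with the laminin group. Their part in it was not tested.

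Genes for the endoplasmic reticulum, where these proteins are made, were examined as well. Of 19 translocon and chaperone genes 16 were tested, 4 were higher and 0 lower (limma), with a median of 0.45. At an unadjusted p under 0.05, 6 were higher and 0 lower, edgeR called 5 and DESeq2 7 higher. The 4 were lumenal folding genes, Pdia3 (1.997, SE 0.24, adjusted p 0.0197), Hsp90b1 (1.53, SE 0.18, adjusted p 0.0189), Calr (1.07, SE 0.18, adjusted p 0.0342) and P4hb (1.03, SE 0.17, adjusted p 0.0333). Among tested protein-coding genes outside the 9, those with at least 5 leucine codons in the first 30 had a median log2 fold change of -0.22 and 12.35% were called higher, against -0.52 and 4.56% of those with fewer. Length differed too, with a median transcript of 6091 nt for the 9 genes and 3444 nt for all genes tested. Protein-coding genes outside the 9 of at least 4876 nt, the shortest of the 9, had a median of -0.73 and 5.32% called higher, against -0.36 and 6.93% for shorter genes.

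The sign of each fold change depended on how libraries were scaled, because the median of all genes moved with it. Scaled to the total of nuclear protein-coding genes, the median of the 9 was 3.11 (0.47 over all genes), and 7 of the 9 were higher, against 17.2% of all genes, with 0 lower, against 2.59%. Scaled to the total of all genes, mitochondrial RNA included, the 9 were all lower, against 96.7% of all genes lower and 0.521% higher, at a median of -4.71 (-7.34 over all genes). With genes outside the mitochondrial genome as the total, the median was -0.81 (-3.45 over all genes). Lamb2 and Agrn were lower and 0 were higher there, against 79.0% and 1.43% of all genes, and Lamb1 alone kept a positive value (0.27, adjusted p 0.672). Of all calls, 44.0% were higher in the deposited scaling, beside 86.9%, 0.5% and 1.8% in these 3 and 58.5%, 56.7% and 55.9% with upper-quartile, quantile and edgeR's TMM scaling. In all 18 alternatives, each of the 9 lay above the median of all genes tested. Scaling to a total or to the upper quartile shifts all genes alike, and eBayes without trend and the replicate block keep the fold changes. Those settings could not alter this position.

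**Figure D5:**
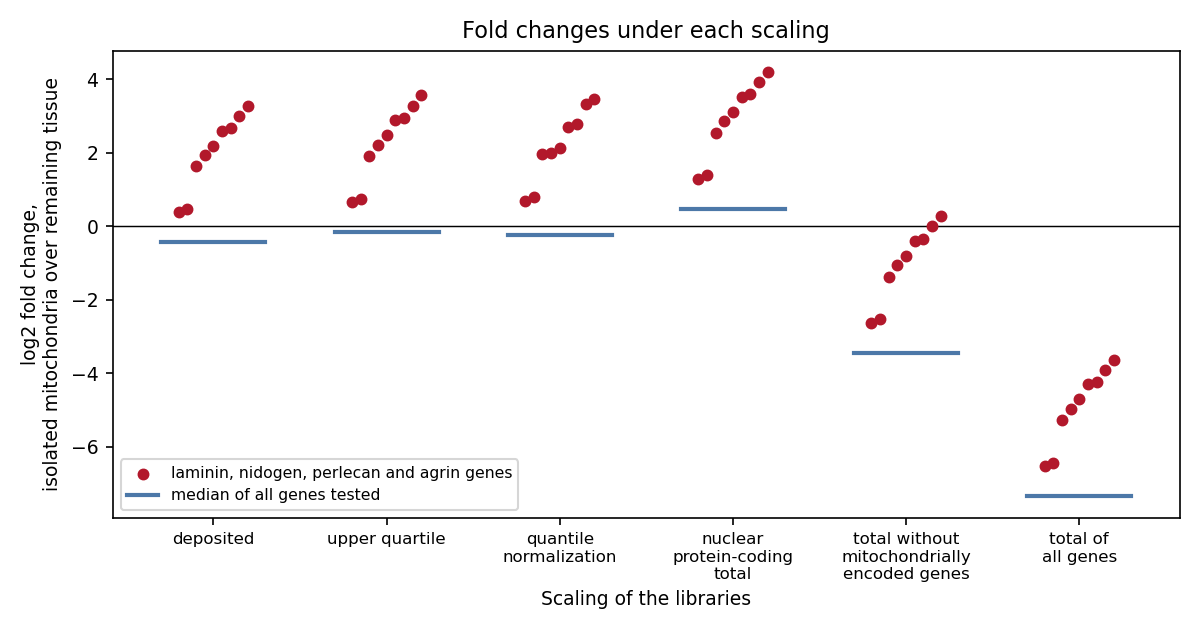
Log2 fold changes (y axis) of the 9 genes as red points under 6 ways to scale the libraries (x axis), with a blue line at the median of all genes tested. The points move with the line and stay above it, from a gene median of 2.19 over a line at -0.44 in the deposited scaling to -4.71 over -7.34 with the total of all genes as the scale. Apart from quantile normalization, the scalings shift all genes alike by construction.

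The genes whose centred values over the 4 libraries lay closest to the mean of the 9 were Mir6236, annotated as a miRNA (distance 0.067 on the log2 scale), Fndc1 (0.097), the ribosomal protein gene Rpl21 (0.105), and Cap1 (0.105) and Arpc5 (0.110), which encode actin regulators. Of the 9 themselves, Lamc1 (0.120) and Hspg2 (0.195) were nearest to that mean and Lamb2 (1.65) and Agrn (1.73) farthest.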

How the data were processed

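Total RNA libraries were made from a low input with a stranded kit. Per the submitters' processing notes, the authors used Trimmomatic 0.39 for trimming and STAR 2.7.10a for alignment to mm10 (GRCm38). They counted exonic reads per gene with featureCounts 2.0.2, without multimapping or ambiguous reads per the methods, before running DESeq2 1.30.1. The paper's methods name other versions of STAR, featureCounts and DESeq2. The deposited values are a signal: gene counts that the authors divided by a size factor and rounded. The rule by which genes entered the table is not given in the sources used here.

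Low values of isolated mitochondria (under 2000) were whole multiples of 1 read for 100.0% of 10508 and 99.98% of 11660 values, within rounding. In remaining tissue 1 normalized count stood for an estimated 7.05 reads, a value derived from the median of ratios over 8993 genes, so rounding hides differences of that size. The libraries of isolated mitochondria held 42750209 and 35304721 assigned reads, those of remaining tissue about 15702591 and 15300466. Replicates differed by more than sampling noise (chi-square per degree of freedom 6.19 and 8.67), so each library was counted.

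Genes with a mean of at least 20 were tested, two-sided and without covariates, on log2(normalized count + 1) with limma 3.58.1 (eBayes with trend) in R 4.3.3, adjusted by Benjamini-Hochberg over 6916 genes. The pseudocount understates changes of low genes. edgeR 4.0.16 (quasi-likelihood) and DESeq2 1.42.0 on the reads were alternatives, as were other scalings, filters, pseudocounts and left-out libraries. The scripts were tested on simulated data. Gene identifiers were matched to GENCODE M21 (16457 of 16472 found). Coding starts are those of the principal transcript, and BLAST 2.17.0 compared transcripts. The genes named were the 9, those of the gene lists that passed or are given as examples, and the 5 closest in pattern by Euclidean distance. The Gene Ontology classes were added after the values were seen. Genes and lists were chosen with earlier results of these data known.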

Additional observations from a re-analysis of the deposited data

How the results depend on the processing

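Counts of genes called higher (7) and the median log2 fold change (2.19) held their direction except under scaling to totals that reach beyond nuclear protein-coding genes. Scaled to the total of all genes, 0 of the 9 were higher and 9 lower (36 and 6686 of 6916 genes), with a median of -4.71 and values of -4.23 for Lama2, -5.27 for Lama4, -3.62 for Lamb1, -6.53 for Lamb2, -4.96 for Lamc1, -4.30 for Nid1, -3.90 for Nid2, -4.71 for Hspg2 and -6.43 for Agrn. With genes outside the mitochondrial genome as the total, 0 were higher and 2 lower (99 and 5464 genes), with a median of -0.81 and values of -0.34 for Lama2, -1.38 for Lama4, -2.63 for Lamb2, -1.06 for Lamc1, -0.41 for Nid1, -0.0020 for Nid2, -0.81 for Hspg2 and -2.53 for Agrn, while Lamb1 was at 0.27. By construction these shift all genes alike. Scaling to nuclear protein-coding genes moved the median to 3.11, and to 3.24 without Gm20594, a copy of a mitochondrial rRNA annotated as protein-coding (an alternative chosen after seeing the data, like the left-out libraries for shares). The share of calls that were higher over all genes was 44.0% under the deposited scaling, 86.9% when scaled to nuclear protein-coding genes and 58.5% when scaled to the upper quartile. The ratio of summed shares, 8.69, became 0.044 for all assigned reads and 0.628 outside mitochondrially encoded genes.

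Leaving out each library in turn gave 6 to 8 genes higher and 0 to 0 lower (over all genes 296 higher without remaining tissue replicate 1, 313 without replicate 2, 1724 without isolated mitochondria replicate 1 and 1643 without replicate 2), a median between 1.89 and 2.49 and a ratio of shares between 6.71 and 10.7. Lamb2 was -0.024 without isolated mitochondria replicate 2 and 0.776 without replicate 1. The calls of Lama4 and Nid1 were lost at a mean of at least 5 (adjusted p 0.0772 and 0.0631), without a filter (0.0662 and 0.0593) and in eBayes without trend (0.0783 and 0.0583), where 5 were higher, and the cause was not tested. With the replicate number as a block, 7 were higher and 0 lower (630 and 1144 over all genes), and the median stayed at 2.19. Same-numbered libraries deviated with a correlation of 0.141 across genes, and with 2 pairs the numbers are not shown to pair samples. Over all 6916 genes tested, limma called 506 higher and 643 lower, beside 438 and 374 in eBayes without trend. At a mean of at least 5 these were 283 and 399 of 11854 genes, and without a filter 665 and 3026 of 16472. Of the 6916 genes, edgeR called 940 higher and 1216 lower, and DESeq2 1404 and 877. Agrn rested on 4 and 5 reads in isolated mitochondria.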

Other observations

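The Gene Ontology terms of the deposited table gave a wider view that was chosen after the values of the 9 genes were seen. Of 68 other genes annotated to the basement membrane, 47 were tested, 15 were higher and 2 lower in isolated mitochondria (limma, adjusted p under 0.05), with a median log2 fold change of 1.43, and 8 of the 47 passed the minimum mean only through isolated mitochondria. Of 309 other genes annotated to the extracellular matrix, 205 were tested (35 only through isolated mitochondria), 62 were higher and 11 lower, with a median of 1.01. Of 2471 other genes annotated to the extracellular region, 1485 were tested (294 only through isolated mitochondria), 199 were higher and 115 lower, with a median of 0.04. The shares called higher were 31.9%, 30.2% and 13.4% of the genes tested, and genes that passed the minimum only through isolated mitochondria had to differ. The classes overlap, and the differences between them were not tested.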
